A study of Mus musculus with 4 samples.

Results

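The regulators described here decide whether a cell enters or leaves the division cycle. They are the D-type cyclin genes Ccnd1, Ccnd2 and Ccnd3, the kinase genes Cdk4 and Cdk6, the Cdk inhibitor genes Cdkn1a, Cdkn1b, Cdkn1c and Cdkn2c, and Mycn, a transcription factor gene of the Myc family. They were taken as a list of 10 named genes, chosen by function with earlier results of these data known. A gene counted as measured when a probe set, the group of array probes that reads 1 transcript unit, carried its symbol and no other. This held for 9 of the 10 among 19938 genes so named. Cdkn1a, the p21 inhibitor gene, is listed for 1 probe set, which also carries a second symbol, so no level is given for it. A level floor was set at 8.56, the 50th percentile of gene levels. All 9 exceeded it in some region, as did 10908 genes in all, which are the genes compared. Of the 9, 8 lay above the floor on all 4 arrays, and Cdkn2c did so in the cerebellum and the olfactory bulb.

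Gene expression was measured in cerebellum, olfactory bulb, pontine nucleus (a relay nucleus of the hindbrain) and superior colliculus (the visual midbrain roof) of ICR mouse embryos, an outbred stock, at embryonic day 17.5. The labels name no genotype or treatment, so the 4 groups differ by region. Each region was read on 1 Affymetrix array with RNA pooled from 13, 14, 15 and 16 mice in the order just given. With 1 pool per region there is no SD, no p-value and no replicate check, and a region cannot be told apart from its single dissection and array.

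Column medians over all probe sets were 8.07 to 8.13. Marker genes matched the tissue names, but they were chosen with earlier results of these data known, so this is no independent check. All 7 cerebellar markers were at least 1.58 log2 units higher there than in any other region, all 8 bulb markers at least 1.70 higher in the bulb, and the 5 measured collicular markers at least 2.32 higher in the colliculus. The 7 pontine markers were higher in the pontine nucleus by 1 log2 unit or more. For the scale of array noise, 202 vomeronasal receptor and beta defensin genes, not known for roles in embryonic brain, were used as a background set. Between any 2 arrays the middle 95% of their differences lay within -0.41 and 0.49. These genes are dimmer than the regulators, so that span describes the arrays and is no error of a regulator.

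D-type cyclins are made in response to growth signals and pair with Cdk4 or Cdk6. The kinase then phosphorylates the retinoblastoma protein, which releases E2f transcription factors and lets the cell copy its DNA. Cdkn2c encodes p18, an Ink4 inhibitor that blocks Cdk4 and Cdk6. Cdkn1b and Cdkn1c encode p27 and p57, Cip/Kip inhibitors that act on several cyclin-kinase complexes and accompany cell cycle exit. In the developing cerebellum, granule cell precursors divide under sonic hedgehog, and Mycn, Ccnd1 and Ccnd2 are known parts of that response.

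Across the 4 regions, 6 of the 9 measured genes spanned at least 1 log2 unit (2-fold) from their lowest to their highest level, beside 15.0% of all compared genes. In bulk tissue, fewer cells of a type and less RNA per cell cannot be told apart, for these genes and all others. These were Ccnd1, Ccnd2, Cdk6, Cdkn1c, Cdkn2c and Mycn. Ccnd3, Cdk4 and Cdkn1b spanned 0.42 to 0.64. The highest level of a gene lay in the cerebellum for 6 of the 9 and in the bulb for the other 3. Over all compared genes 19.0% were highest in the cerebellum and 28.1% in the bulb. The lowest level lay in the colliculus for 5, in the bulb for 2 and in the pontine nucleus for 2, where the shares of all compared genes were 22.4%, 18.3% and 26.6%. No member was set apart from every other region by 1 log2 unit. Over all compared genes 3.09% were that much higher, and 1.73% that much lower, in 1 region than in each of the others.

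**Figure D1:**
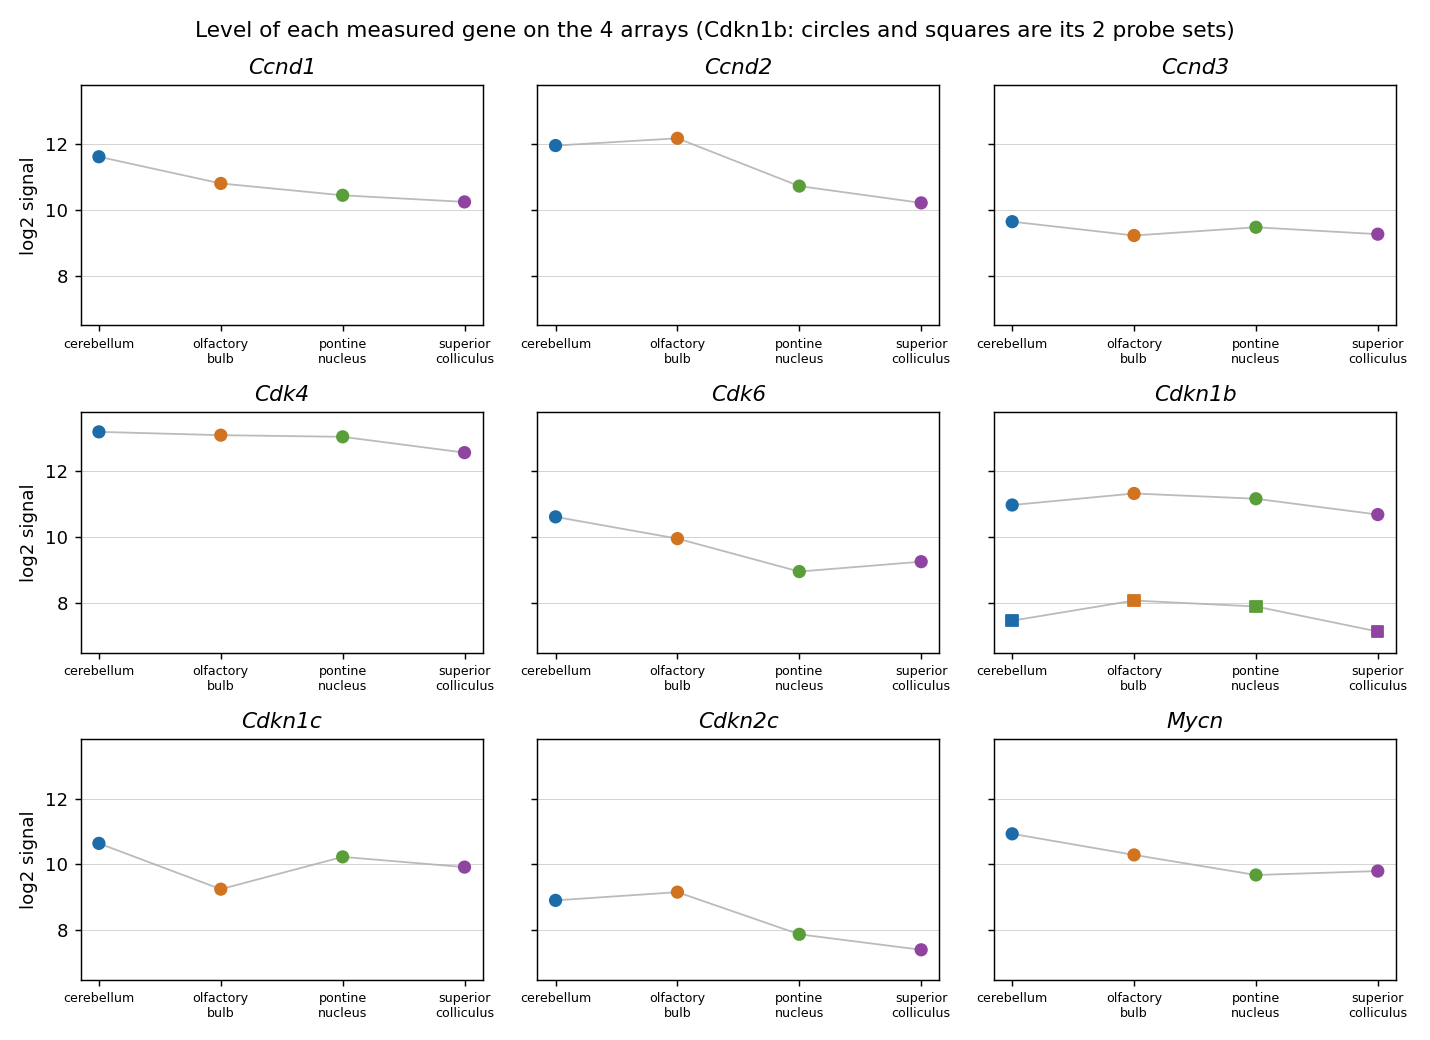
Log2 signal (y axis) of each measured gene on the 4 arrays, 1 point per region and probe set, with lines joining the regions of a probe set and no error bars because there is 1 array per region. Ccnd2 and Cdkn2c step down between the bulb and the pontine nucleus, whereas Cdk4 lies between 12.57 and 13.20 throughout.

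Among the cyclins, Ccnd1 was brightest on the cerebellar array, at 11.62, followed by the bulb at 10.81, the pontine nucleus at 10.45 and the colliculus at 10.25. The cerebellum was therefore 2.25-fold above the pontine nucleus, 2.59-fold above the colliculus and 1.75-fold above the bulb. The steps below the bulb were small, at 0.36 and 0.20 log2 units, both inside the span of the background set for those arrays.

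Ccnd2, the cyclin that many neural precursors use besides Ccnd1, had another order. It read 12.18 in the bulb, 11.96 in the cerebellum, 10.73 in the pontine nucleus, with 10.22 in the colliculus. Bulb and cerebellum lay 0.22 log2 units apart, inside the background span, and both stood above the other regions, by 1.23 log2 units in the smallest case. The bulb exceeded the colliculus 3.89-fold, the widest range of the 9 genes. So the bulb lay 0.81 log2 units below the cerebellum for Ccnd1 and 0.22 above it for Ccnd2.

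Ccnd3 varied least. Its levels were 9.65 in the cerebellum, 9.48 in the pontine nucleus, 9.27 in the colliculus and 9.23 in the bulb. The bulb and the colliculus differed by 0.04 and no pair of regions by more than 0.42.

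The kinase genes differed from each other in how far they varied. Cdk4 read 13.20 in the cerebellum, 13.10 in the bulb, 13.05 in the pontine nucleus, with 12.57 in the colliculus. The first 3 regions fell within 0.15 log2 units, and the colliculus lay 0.48 below the nearest of them. Cdk6 read 10.62 in the cerebellum, 9.96 in the bulb, 9.26 in the colliculus and 8.96 in the pontine nucleus. It was 3.16-fold higher in the cerebellum than in the pontine nucleus and 2-fold higher in the bulb than there, which sits exactly on the threshold of 1 log2 unit. That difference fell below it, to 0.98, with quantile normalization of the arrays and to 0.94 with centring on the compared genes. The colliculus and the pontine nucleus lay 0.30 apart, inside the background span.

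The kinase gene promoters are shown because Cdk4 and Cdk6, with the same partners, varied so unequally, and because the E-box letters CACGTG are the classical recognition letters of Myc proteins, Mycn included. The RefSeq promoter table (GRCm38.p6) covers 250 bases before and 50 bases after a gene's start and held 7 of the 10 listed genes. It held no promoter of Ccnd1, Ccnd2 or Cdkn1c, so these were not searched for any letters. The Cdk4 promoter held CACGTG 4 times, starting 172, 118, 98 and 11 bases before the start. Of all 32851 promoters, 7.15% held the letters at all and 0.0244% held them 4 times or more. The Cdk6 promoter held them once, starting 220 bases before the start, and 1 of the 2 Cdkn2c promoters held them after its start. The letters read alike on both strands, and capitals mark them below. The Cdk4 stretch is chr10:127063355-127063534 on the plus strand, and the Cdk6 stretch is chr5:3343663-3343692 on the plus strand.
Cdk4: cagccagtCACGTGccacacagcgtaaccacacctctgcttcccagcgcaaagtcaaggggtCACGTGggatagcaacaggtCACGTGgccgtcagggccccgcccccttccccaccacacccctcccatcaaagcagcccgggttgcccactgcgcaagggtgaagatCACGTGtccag
Cdk6: tctgcggcccCACGTGggtgaacccccggt

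Cerebellum minus pontine nucleus was 0.15 log2 units for Cdk4, 1.66 for Cdk6, 1.25 for Mycn and -1.32 for its relative Myc. Whether Mycn or Myc acts on Cdk4 or Cdk6 was not tested. A match of letters is a description of the promoter, and binding of a factor was not measured.

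The inhibitor genes fell into 3 patterns. Cdkn2c followed Ccnd2, with 9.16 in the bulb, 8.91 in the cerebellum, 7.88 in the pontine nucleus, with 7.41 in the colliculus. The bulb was 3.36-fold above the colliculus and 2.43-fold above the pontine nucleus, while the bulb and the cerebellum lay 0.25 apart, inside the background span. The collicular level came close to 7.33, the 95th percentile of levels in the background set.

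Cdkn1b ranged by less than 1 log2 unit on both of its probe sets. Its brighter probe set read 11.33 in the bulb, 11.17 in the pontine nucleus, 10.98 in the cerebellum and 10.69 in the colliculus. A second, dimmer probe set gave 8.08, 7.90, 7.47 and 7.14 in the same order of regions, with a range of 0.94 against 0.64. Both probe sets thus ranked the regions alike. The bulb and the colliculus, the ends of that order, differed by 1.56-fold on the brighter probe set. All 4 differences that involve the cerebellum or set the bulb against the pontine nucleus lay inside the background span. Those of the bulb and the pontine nucleus over the colliculus, 0.64 and 0.48, lay outside it.

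Cdkn1c was the inhibitor gene with its own pattern. It read 10.64 in the cerebellum, 10.23 in the pontine nucleus, 9.92 in the colliculus and 9.25 in the bulb. The bulb was the low region, 2.62-fold below the cerebellum and 1.97-fold below the pontine nucleus, the latter difference of 0.98 log2 units falling just short of the threshold and reaching -1.04 (bulb minus pontine nucleus) with centring on the compared genes. In the bulb, then, Cdkn2c was at its highest and Cdkn1c at its lowest level of the 4 regions. Markers of other cells were read beside this gene and had no common direction. Of 5 oligodendrocyte precursor genes above the floor, 4 read below their cerebellar level in the bulb, where 39.4% of all compared genes did so. The median difference of all 5 was 0.65 log2 units. Their mean level was 9.42, 9.04, 9.34 and 9.35 in the cerebellum, bulb, pontine nucleus and colliculus. Cerebellum minus bulb was 1.17 for Olig1, 0.68 for Olig2, 0.65 for Pdgfra, 0.02 for Cspg4 and, in the other direction, -0.64 for Sox10. Endothelial markers, by contrast, spanned 9.40 to 9.57 in mean level over the regions (4 genes above the floor), and mural cell markers 9.04 to 9.36 (4 genes). Meningeal and fibroblast markers (4 genes of 5 above the floor) had mean levels of 8.28, 9.39, 8.15 and 8.50, and among them Dcn read 10.59 in the bulb against 7.08 to 8.65 elsewhere. The part of these cells in the level of Cdkn1c was not tested.

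Mycn, which drives division of neural precursors, read 10.93 in the cerebellum, 10.29 in the bulb, 9.80 in the colliculus and 9.68 in the pontine nucleus. The cerebellum was 2.38-fold above the pontine nucleus and 2.19-fold above the colliculus. The bulb lay between, 0.64 log2 units under the cerebellum and 0.61 over the pontine nucleus. The last 2 regions differed by 0.12, inside the background span.

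The Mycn promoter is shown for its letters of E2F, the factor family released when D-type cyclin kinases act on the retinoblastoma protein. TTTGGCGC or TTTCGCGC was searched on both strands. The promoter held 3 matches, TTTGGCGC starting 183 and 168 bases before the start and GCGCGAAA, which is TTTCGCGC on the opposite strand, starting 179 bases before it. The matches at 183 and 179 overlap and share 4 bases. Of all promoters, 0.813% held at least 1 match and 2 promoters (0.00609%) held 3 or more. None of the other members' promoters in the table held these letters. Capitals mark the matches in the stretch chr12:12941977-12942036, on the minus strand.
Mycn: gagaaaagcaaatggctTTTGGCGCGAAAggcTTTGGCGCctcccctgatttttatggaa

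No member's promoter in the table held the Gli letters GACCACCCA, present in 0.253% of promoters. Nor did any hold the cyclic AMP response letters TGACGTCA, present in 1.79%. This says only that those letters are not in these windows, and Ccnd1, Ccnd2 and Cdkn1c could not be searched. The Sp1 letters GGGCGG, present in 35.7% of promoters, were found in promoters of Cdkn1a, Cdkn1b, Cdkn2c, Cdk4, Mycn and Ccnd3. TATAAA, present in 13.6%, was found in the Cdk6 promoter.

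**Figure D2:**
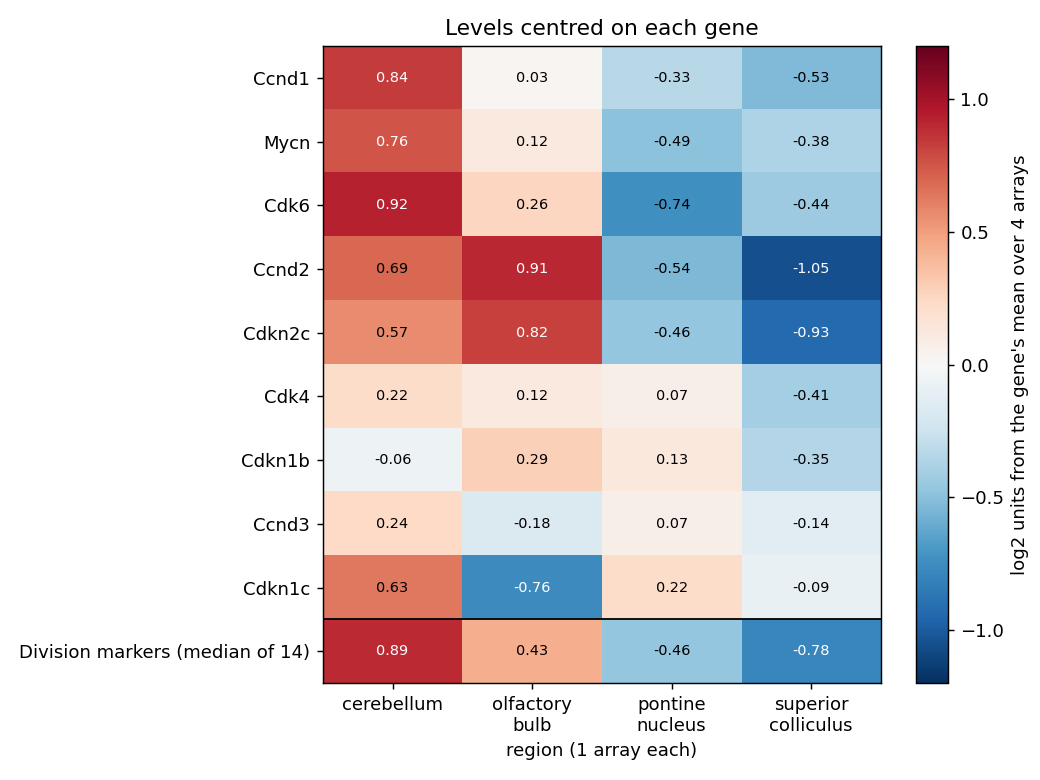
Levels as log2 units from each gene's own mean over the 4 arrays, with regions on the x axis, genes in rows and the median of 14 division markers in the bottom row. Ccnd1, Mycn and Cdk6 peak in the cerebellum at 0.76 to 0.92, Ccnd2 and Cdkn2c peak in the bulb at 0.91 and 0.82, and Cdkn1c is lowest in the bulb at -0.76.

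The 6 pairs of regions were then compared. A gene was called when it differed by at least 1 log2 unit. Between the cerebellum and the pontine nucleus, Ccnd1, Ccnd2, Cdk6, Cdkn2c and Mycn were called higher in the cerebellum, 5 of 9, beside 4.49% of all compared genes. The same 5 genes were called higher in the cerebellum than in the superior colliculus, beside 3.08%. The 2 comparisons share the cerebellar array and are not independent. The median difference of the 9 genes was 1.03 and 1.13 log2 units in these pairs, where that of all compared genes was -0.04 in both. Cdkn2c entered the comparison only through the cerebellum and the bulb, where it is high. Without it the counts are 4 of 8 in both pairs.

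Between the bulb and the pontine nucleus, Ccnd2, Cdk6 and Cdkn2c were called higher in the bulb, 3 of 9 beside 5.20% of all genes, or 2 of 9 with quantile normalization, which loses Cdk6. Over the colliculus the bulb was higher for Ccnd2 and Cdkn2c, 2 of 9 beside 2.94%. Without Cdkn2c the counts of these bulb pairs are 2 of 8 over the pontine nucleus and 1 of 8 over the colliculus. Between the cerebellum and the bulb, Cdkn1c alone was called, higher in the cerebellum, beside 2.06%. The pontine nucleus and the colliculus differed by less than 1 log2 unit for all 9 genes, where 1.72% of all genes were called higher and 4.12% lower in the pontine nucleus.

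No member was called in the opposite direction of any of these pairs. Over all genes, 2.46% were called lower in the cerebellum than in the bulb, 1.88% lower than in the pontine nucleus and 2.63% lower than in the colliculus. The corresponding shares for the bulb were 2.57% against the pontine nucleus and 2.73% against the colliculus. Of the 54 member differences over the 6 pairs, 16 were called and 19 lay inside the background span of their pair.

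**Figure D3:**
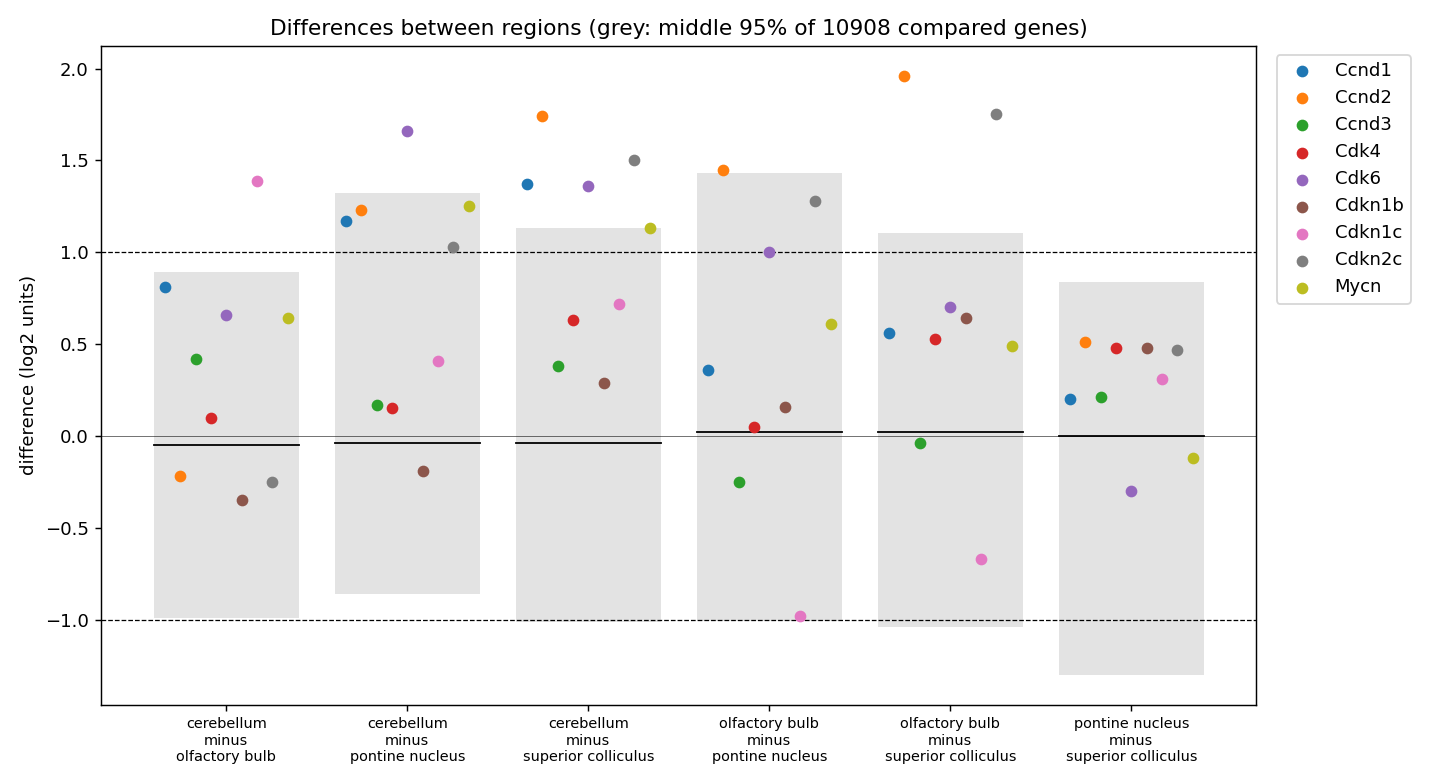
Difference between 2 regions (y axis, log2 units) for the 9 genes, in 6 pairs of regions, with dashed lines at 1 and -1, the middle 95% of all 10908 compared genes in grey and their median as a black line. In the 2 pairs that set the cerebellum against the pontine nucleus or the colliculus, 5 of the 9 points lie on the far side of the upper dashed line.

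The likeness of patterns was measured as the Euclidean distance between the 4 levels of 2 genes, each centred on its own mean, so that 0 means identical differences among the regions. The closest members were Ccnd2 and Cdkn2c at 0.21, followed by Ccnd1 and Mycn at 0.26, and by Cdk4 and Cdkn1b and Cdk6 and Mycn, both at 0.34. Ccnd1 and Ccnd2, members of 1 family, lay 1.05 apart, and the most distant pair was Ccnd2 and Cdkn1c at 2.07. A distance over 4 arrays is a coarse measure, and 43 genes lay within 0.30 of Mycn and 25 within 0.30 of Ccnd1.

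Outside the list, the genes nearest to Ccnd1 were Hells, a chromatin remodeller gene of dividing cells, at 0.05, Tfdp2, an E2f partner gene, at 0.10, and Bora, a gene of mitotic entry, at 0.13. Hells read 9.23, 8.44, 8.02 and 7.83 in the cerebellum, bulb, pontine nucleus and colliculus. Hells and Bora lay above the floor of 8.56 only in the cerebellum, so both were compared only through that region. For Mycn the nearest genes were Loxl1, a lysyl oxidase gene, at 0.02, and Smo, the signal transducer gene of hedgehog, at 0.12. Cyp2d22, a cytochrome P450 gene, also lay at 0.12. Loxl1 was under the floor in the pontine nucleus and the colliculus, and Cyp2d22 in the pontine nucleus. Smo read 11.28, 10.66, 10.18 and 10.21 in the same order of regions.

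The nearest genes to Cdk6 were Sphk1, a lipid kinase gene, Adamts1, a matrix protease gene, and Nek2, a mitotic kinase gene, all at 0.15. Each was under the floor in the pontine nucleus and the colliculus, and Nek2 in the bulb as well. Ccnd2 lay nearest to Arhgap11a at 0.19, then to Cdkn2c and Tcf19. Arhgap11a was under the floor in the pontine nucleus and the colliculus, and Tcf19 in the colliculus. Cdkn2c lay nearest to the gap junction gene Gja1 at 0.15, which read 10.38, 10.62, 9.50 and 9.01, then to Ccnd2 and Tcf19.

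The genes nearest to Cdkn1c were Draxin, an axon guidance gene, at 0.09, Nefl, which encodes the light neurofilament chain of neurons, at 0.15, and Emp1, a membrane protein gene, at 0.21. Draxin read 11.76 in the cerebellum, 10.41 in the bulb, 11.47 in the pontine nucleus, with 11.09 in the colliculus. Nefl read 12.98, 11.74, 12.67 and 12.46.

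The other genes of the pathway were taken from lists chosen by function, of which 77 genes lay above the floor. Of 14 division markers above the floor, all were higher in the cerebellum than in the colliculus by at least 1 log2 unit (median 1.71). Over the pontine nucleus 10 were so. The shares of all compared genes were 3.08% and 4.49%. Mcm3, Bub1 and Birc5 lay under the floor in the pontine nucleus and the colliculus, and Top2a did in the colliculus. All 14 read above the bulb in the cerebellum, by 0.07 to 0.78, where 39.4% of all compared genes did so. The differences of Birc5, Pcna, Plk1, Mcm7 and Aurkb, 0.07 to 0.37, lay inside the background span. Ccnd2, Cdkn2c and Cdkn1b read higher in the bulb, by 0.22, 0.25 and 0.35, each inside the background span of those 2 arrays. Radial glia genes had a median difference of 0.94 between the cerebellum and the pontine nucleus over 7 genes, with mean levels of 11.89, 11.74, 11.11 and 11.36 in the cerebellum, bulb, pontine nucleus and colliculus. How far the share of dividing or precursor cells accounts for the levels of the members was not tested.

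Downstream of the D-type cyclins, all 9 E2f and Dp genes above the floor read highest in the cerebellum, beside 19.0% of all compared genes. For E2f3, E2f4, E2f5, E2f6, E2f8 and Tfdp1 the lead over the bulb, 0.08 to 0.39, lay inside the background span. For E2f1, E2f7 and Tfdp2 it was 0.44 to 0.67, outside the span. Of the 9 genes, 3 passed 1 log2 unit against the colliculus, beside 3.08% of all compared genes. E2f1, the best known activator of the family, read 10.85 in the cerebellum, 10.23 in the bulb, 9.91 in the pontine nucleus, with 8.90 in the colliculus. E2f8 and Tfdp2 had ranges of 1.59 and 1.31. E2f8 lay under the floor of 8.56 in the pontine nucleus and the colliculus. E2f4, which acts mainly in resting cells as a repressor, ranged by 0.26. Of the 3 retinoblastoma family genes, Rbl1 was higher in the cerebellum than in the pontine nucleus, at 9.65 against 8.62, whereas Rb1 was highest in the pontine nucleus at 11.90 and read 11.12 to 11.41 elsewhere.

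Of the 6 later cyclin and kinase genes above the floor, Ccna2 and Cdk2 passed 1 log2 unit in the cerebellum over the pontine nucleus and the colliculus. The shares of all compared genes in these pairs were 4.49% and 3.08%. Ccna2, the cyclin of S phase, read 12.07, 11.55, 10.36 and 9.91 in the cerebellum, bulb, pontine nucleus and colliculus. Cdk2, its kinase, read 9.40, 9.10, 8.24 and 8.19, under the floor of 8.56 in the pontine nucleus and the colliculus. Ccne1, an E-type cyclin gene, ranged by 0.67, and Cdk7, a kinase that activates other Cdks, by 0.23. Among the other inhibitor genes Cdkn3 and Cdkn2d lay above the floor and neither varied by 1 log2 unit. The remaining Ink4 genes, Cdkn2a and Cdkn2b, lay under the floor on every array.

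Genes that act on the stability of these proteins were divided. Of 8 above the floor, 3 passed 1 log2 unit between the cerebellum and the pontine nucleus, beside 4.49% of all compared genes. They were Skp2, which targets p27 for destruction, with 10.27 against 9.21, its cofactor Cks1b with 10.84 against 9.62, and Aurka, a mitotic kinase that stabilises Mycn protein, with 9.60 against 8.60. Cul1, Huwe1, Ambra1, Fbxo31 and Fbxw7 ranged by 0.15 to 0.60. Thus the gene of p27, Cdkn1b, ranged by 0.64 on its brighter probe set, while Skp2 ranged by 1.06.

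**Figure D4:**
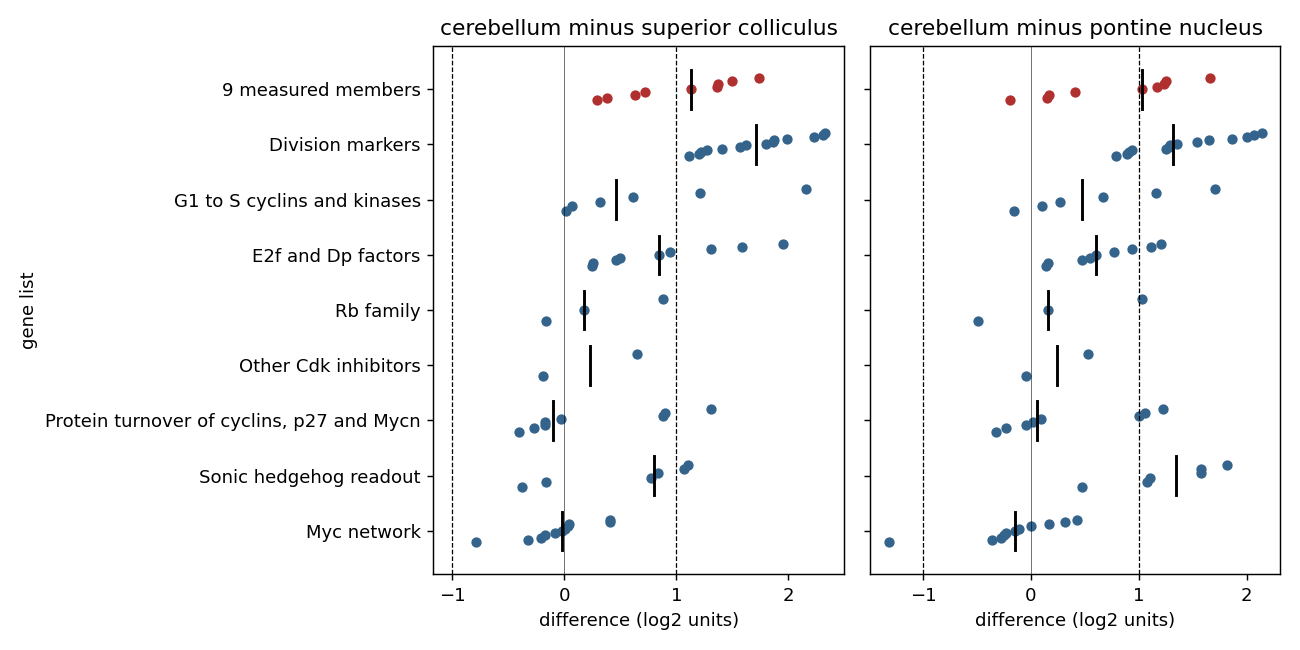
Difference (x axis, log2 units) between the cerebellum and the colliculus (left) or the pontine nucleus (right) for the 9 members and for pathway genes above the floor, 1 point per gene and 1 row per list, with black bars at the list medians and dashed lines at 1 and -1. All division markers lie to the right of 0 in both panels, and Myc lies at -1.32 in the row of the Myc network at right.

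Upstream, the list of 6 hedgehog genes mixes pathway components, such as Smo, with target genes, such as Gli1. All 6 read above the pontine nucleus in the cerebellum, 5 of them by at least 1 log2 unit, with a median of 1.34. The share of all compared genes called so was 4.49%. Of these 5, Gli1, Gli2, Gli3 and Hhip lay under the floor of 8.56 in the pontine nucleus. Their levels there were 8.25, 8.18, 8.04 and 7.03, and only Smo lay above the floor in both regions. Ptch1 differed by 0.47. Gli1, a transcription factor and target gene of the pathway, read 9.33 in the cerebellum. It read 8.55 in the bulb, 8.49 in the colliculus and 8.25 in the pontine nucleus, all under the floor of 8.56. Gli1 thus entered the comparison only through the cerebellum, where it is high. Against the colliculus 2 of the 6 passed, beside 3.08% of all compared genes. For Hhip and Gli3 the cerebellum minus colliculus difference was -0.38 and -0.16, where that of Mycn was 1.13. Gli1, Gli2 and Smo had the order of Mycn over the 4 regions, and Gli3, Hhip and Ptch1 did not. That order includes small steps. Pontine nucleus minus colliculus was -0.12 for Mycn, -0.24 for Gli1 and -0.03 for Smo, all inside the background span of those arrays. For Gli2 it was -0.48, outside the span, with the pontine level under the floor. For Gli1 the order outside the cerebellum rests on levels under the floor.

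Within the Myc network, Mycn and Myc ran in opposite directions between the cerebellum and each other region. Between the bulb and the colliculus both read higher in the bulb, by 0.49 and 0.05. Myc, the relative used by many other dividing cells, read 10.03 in the cerebellum, 10.87 in the bulb, 10.82 in the colliculus and 11.35 in the pontine nucleus. It was thus 1.32 log2 units lower in the cerebellum than in the pontine nucleus, where Mycn was 1.25 higher. Of the 11 other network genes above the floor, Myc was the 1 with a range of 1 log2 unit or more. Mycl, the third family member, ranged by 0.32 and Max, the obligate partner of all 3 proteins, by 0.08.

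**Figure D5:**
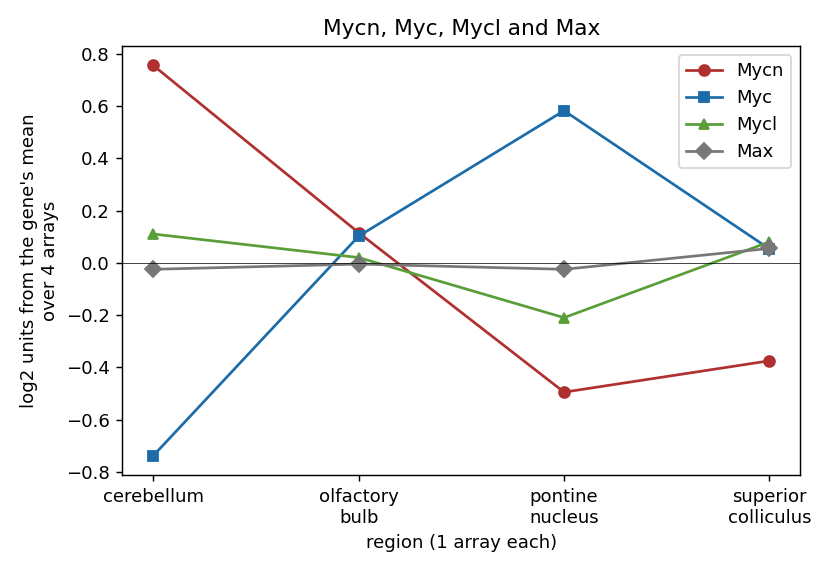
Levels of Mycn, Myc, Mycl and Max as log2 units from each gene's own mean over the 4 arrays (y axis) in the 4 regions (x axis), 1 array per region. On the cerebellar and pontine arrays Mycn is at 0.76 and -0.49, and Myc at -0.74 and 0.58.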

How the data were processed

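The members and the gene lists were chosen with earlier results of these data known. RNA of 4 regions (Trizol and RNeasy, Ambion WT Expression Kit, per the labels' protocols) was hybridised to 1 Affymetrix array each, and Affymetrix Expression Console was used, per the submitters' processing notes. For its version, algorithm, normalization and build, the sources used here give nothing. The table deposited by the authors holds log2 values per probe set, a scale inferred from the values (2.43 to 14.57). Whether the arrays were scaled to each other is unknown here; such scaling would remove a difference in total RNA.

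Probe sets with 1 symbol in the array annotation of 2016 were used (21789 of 35556), with symbols checked by Entrez ID against RefSeq. The brightest probe set gave a gene its level. The genes named in the text are the members, list genes with a range of at least 1 log2 unit (up to 5 by range) or else the 2 widest, and the 3 genes nearest to each member that spanned 1 log2 unit. Further list genes in the text were chosen with their values known. No test was possible. The calls were checked on simulated data. Alternatives were other floors, sizes, probe set rules, comparators and scalings. Python 3.11.15, NumPy 2.4.6, pandas 2.3.3 and Matplotlib 3.10.9 were used.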

Additional observations from a re-analysis of the deposited data

How the results depend on the processing

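Quantile normalization, centring on compared genes and the mean of probe sets moved the 54 member differences by at most 0.09, 0.07 and 0.15 log2 units. Quantile normalization and centring took Cdk6 between the bulb and the pontine nucleus below the threshold, to 0.98 and 0.94 from 1, and centring took Cdkn1c there past it, to -1.04. No other member call between 2 regions changed under these 3 settings. Centring turned the sign of 1 difference. Removing the level floor changed no count. With the floor at the 75th percentile of gene levels, Ccnd3 and Cdkn2c left the comparison: 1 gene in place of 2 was called between the bulb and the colliculus, 2 in place of 3 between the bulb and the pontine nucleus, 4 in place of 5 between the cerebellum and each of these 2 regions, and 5 in place of 6 by range. With a size of 2 log2 units the count was 0 in every pair and for the range. With a size of 1.5-fold, 4 genes in place of 1 were called between the cerebellum and the bulb, 5 in place of 3 between the bulb and the pontine nucleus, 5 in place of 2 between the bulb and the colliculus, 7 in place of 5 between the cerebellum and the colliculus, and 8 in place of 6 by range. At that size 4 of 9 genes were set apart in 1 region, in place of 0, beside 12.2% of all compared genes: Ccnd1, Cdk6 and Mycn as higher in the cerebellum and Cdkn1c as lower in the bulb. Against the mean of the other arrays there were 8 such calls for 6 of 9 genes, beside 9.76% of all compared genes. Taking all measured list members moved 6 list medians: other Cdk inhibitors to 0.05 (cerebellum minus colliculus) and 0.12 (bulb minus colliculus), and the imprinted genes to 0.11 (cerebellum minus bulb), 0.35 (cerebellum minus pontine nucleus), 0.14 (bulb minus pontine nucleus) and -0.19 (pontine nucleus minus colliculus). Fewer or more genes enter under another floor or size by construction. For the counts by pair and by range, the share of all compared genes at those settings is not given. Signal over background limits Cdkn2c in the colliculus.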

Other observations

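Cdkn1a is a target gene of p53, and other p53 target genes could be read where it could not. Of 9 measured genes of that list, 7 lay above the floor, and none of them was called between the cerebellum and the bulb. In that pair only 2.06% of all compared genes were called higher and 2.46% lower in the cerebellum. Phlda3, Btg2 and Trp53inp1 were called in other pairs. Phlda3, an inhibitor gene of Akt signalling, read 9.47 in the colliculus and 8.40 to 8.71 in the other regions. Btg2, an antiproliferative gene of neurogenic divisions, read 9.76 in the cerebellum and 9.77 in the bulb, and was 1.08 log2 units lower in the pontine nucleus than in the cerebellum. Trp53inp1 was highest in the pontine nucleus, at 11.46, and lowest in the colliculus, at 10.29. Mdm2 and Ccng1 ranged by 0.23 and 0.24.

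Cdkn1c lies in an imprinted region, in which the copy from 1 parent is silent. Its neighbours there, Phlda2, Slc22a18 and Kcnq1, lay below the floor on all 4 arrays and ranged by 0.16 to 0.40. Plagl1, an imprinted transcription factor gene elsewhere in the genome, read 11.43 in the cerebellum, 10.65 in the colliculus, 10.24 in the bulb and 10.10 in the pontine nucleus. Igf2 ranged by 0.78. Of 9 genes of neuron maturation, 3 read above the bulb in the cerebellum, near the 39.4% of all compared genes that did so. The list's median difference (cerebellum minus bulb) was -0.16, where that of all compared genes was -0.05. Nefm had the widest range, at 11.07 in the cerebellum and 8.45 in the bulb, while Snap25 and Syt1 differed the other way, by -0.66 and -0.46.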
